A study of Mus musculus with 18 samples.

Results

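The genes described here are those of the cytosolic ribosomal proteins. They were chosen by name alone, as names that start with Rps, Rpl or Rplp followed by a digit, and 10 names of S6 kinases were left out. The rule found 85 names in each table, of 20066 gene names in the table of differentiation stages and of 20268 in the table of fibroblasts. Of the 85, 76 encode structural proteins of the cytosolic ribosome, 30 of the small and 46 of the large subunit. A further 7 are paralogues of structural proteins, 1 carries a pseudogene name (*Rpl31-ps12*) and 1 encodes a different protein, named for its binding to RPS19 (*Rps19bp1*). The 85 loci lie on 19 different chromosomes, with 14 on chromosome 7, and each overlaps the RefSeq gene of the same symbol.

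Each ribosomal protein is present once in nearly every ribosome, apart from the stalk proteins, so that the genes are expressed together and at high levels in growing cells. Their mRNAs start with a run of pyrimidines, the terminal oligopyrimidine (TOP) motif, through which growth signals control translation. Most of them have processed pseudogenes, copies of the mRNA inserted elsewhere in the genome, and mutations in several of the genes cause Diamond-Blackfan anaemia, a failure of red cell production.

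RNA sequencing data were analysed from 18 samples of mouse cells of strain 129. A first set of 10 samples followed the differentiation of an embryonic stem cell line with a GFP reporter in *Brachyury* (Bry), with 2 replicates for each of 5 stages. The stages were ESC, the undifferentiated line; MES, mesoderm sorted as Bry+ and Flk1-; HB, hemangioblasts, sorted as Bry+ and Flk1+; HP, hematopoietic progenitors, sorted as CD41+; and MAC, macrophages, sorted as CD11b+. The table holds 1 combined value per stage, so that differences between stages have no replicate error and were not tested. The second set holds 8 single libraries of mouse embryonic fibroblasts (MEFs) harvested at day 12 or day 21. They were untreated (uFIB) or carried Scl and Lmo2 (SL), Scl, Fli1, Gata2 and Lmo2 (SFGL) or Fli1, Gata2 and Lmo2 (FGL), where Scl is another name for Tal1. The MEFs were wild type or carried a doxycycline-inducible *Tal1* allele, and the labels do not say which libraries came from which. All values are FPKM, fragments per kilobase of transcript scaled to the mapped fragments of a library, which do not hold the number of reads, so that the depth behind each value is unknown.

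The labels were checked against marker genes. The summed level of 6 stem cell genes was 672 FPKM in ESC and 2.58 FPKM in HP, and that of 4 mesoderm genes was 277 FPKM in MES and 12.0 FPKM in ESC. That of 6 macrophage genes was 1527 FPKM in MAC and 18.9 FPKM in HP. For 4 hemangioblast genes it was 201 FPKM in HB and 15.8 FPKM in MES, and for 5 blood progenitor genes 162 FPKM in HP and 9.78 FPKM in HB. Some sums in ESC went against its label. They were 52.9 FPKM for 5 red cell genes (0.381 FPKM in MES) and 10.8 FPKM for 4 endothelial genes (1.65 FPKM in MES). *Tal1* was at 0.0414 and 0.415 FPKM in the uFIB libraries and at 58.0 to 347 FPKM in the SL and SFGL libraries. *Fli1*, not named in the SL label, was at 46.7 and 34.4 FPKM in SL at day 12 and day 21. In SFGL it was at 41.2 and 27.8 FPKM, so that *Fli1* did not separate SL from SFGL. *Gata2* was at 68.8 and 62.6 FPKM in SL, 110 and 132 FPKM in SFGL and 1.80 and 2.13 FPKM in uFIB. The libraries labelled FGL went partly against that label, because *Tal1* was at 7.04 FPKM at day 12 and *Fli1*, at 3.35 FPKM at day 21, was near its uFIB levels of 3.43 and 3.02 FPKM. Results are therefore given with and without them.

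The start sites of 56 of the 76 structural genes were matched by symbol to RefSeq promoter windows (GRCm38.p6). The stretches shown run from 15 bases before the annotated start to 14 bases after it, 5′ to 3′. Capitals mark the uninterrupted run of C and T that begins with a C at the start itself, and where several starts are annotated the one with the longest run was taken. The genes were chosen because the results below turn on them. The stretches lie at chr9:120571502-120571531 (*Rpl14*, plus strand), chr17:33955651-33955680 (*Rps18*, minus), chr2:180257364-180257393 (*Rps21*, plus), chr17:27635230-27635259 (*Rps10*, minus), chr7:4792950-4792979 (*Rpl28*, plus), chr4:86857353-86857382 (*Rps6*, minus), chr7:141447636-141447665 (*Rplp2*, plus), chr5:115559452-115559481 (*Rplp0*, plus), chr5:107900513-107900542 (*Rpl5*, plus) and chrX:134585639-134585668 (*Rpl36a*, plus).
Rpl14: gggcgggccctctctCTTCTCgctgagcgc
Rps18: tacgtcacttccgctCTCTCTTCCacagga
Rps21: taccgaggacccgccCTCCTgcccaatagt
Rps10: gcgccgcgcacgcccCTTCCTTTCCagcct
Rpl28: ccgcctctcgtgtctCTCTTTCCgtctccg
Rps6: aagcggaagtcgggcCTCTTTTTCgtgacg
Rplp2: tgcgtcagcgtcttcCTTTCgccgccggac
Rplp0: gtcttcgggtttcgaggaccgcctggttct
Rpl5: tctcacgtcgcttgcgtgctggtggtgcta
Rpl36a: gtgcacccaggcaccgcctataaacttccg
A C at the start followed by at least 4 more C or T was present in 13 of 66 windows of structural genes (19.7%) and in 823 of all 32851 windows (2.51%). When the run was allowed to begin within 5 bases of the annotated start, the shares were 43.9% and 18.3%. The letters CCGGAAG, searched on both strands over the whole 300 bases, were in 36.4% of the members' windows and 8.86% of all windows. For AAGATGGC, searched in the same way, the shares were 10.6% and 2.75%. These are matches of letters only.

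In the stages, the listed levels of the structural genes spanned more than 3 orders of magnitude. Levels are given in the order ESC, MES, HB, HP and MAC. Among the highest by the mean of the 5 stages were *Rpl8*, at 627, 930, 1012, 723 and 895 FPKM, and *Rplp1*, a stalk protein, at 415, 640, 642, 697 and 1251 FPKM. At the other end were *Rpl17*, at 1.54 to 2.62 FPKM over the 5 stages, *Rpl28*, at 1.28 to 1.97 FPKM, and *Rpl29*, at 0.217 to 0.505 FPKM. Each of these 5 encodes a structural protein of the cytosolic ribosome. The median of the 76 structural genes was 18.1, 20.6, 24.0, 21.5 and 24.0 FPKM at the 5 stages. Between 24 and 31 of the 76 were under 10 FPKM at each stage. The 10 highest genes held 67.1% to 68.9% of the summed FPKM of the structural genes at each stage, and 25.4% to 28.5% in each MEF library.

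In the MEF libraries the structural genes lay much closer together. Their median was 550 FPKM in uFIB at day 12, and the quartiles were 404 and 830 FPKM. *Rpl28*, listed at under 2 FPKM in each stage, was at 939 to 2946 FPKM in the 8 libraries and was the highest structural gene in SFGL at day 12. *Rpl29* had a mean of 537 FPKM over the 8 libraries and *Rpl17* one of 820 FPKM. The 3 lowest structural genes of the MEFs by their mean were *Rps15a* at 42.2 FPKM, *Rpl22* at 66.5 FPKM and *Rpl15* at 209 FPKM. The tables were normalized separately, so FPKM of both tables given side by side are not on a common scale. The order of the genes was compared across the tables by rank.

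The order of the structural genes was nearly the same within each table and unrelated between the tables. The lowest Spearman's rho over the 76 genes was 0.92 between 2 stages and 0.93 between 2 MEF libraries. Between a stage and an MEF library it ranged from -0.07 to 0.09. For the mean of the stages against the mean of the MEF libraries it was 0.03 for the structural genes, 0.56 for 40 genes of ribosome assembly, 0.55 for 75 mitochondrial ribosomal proteins, 0.28 for 17 translation factors and other genes known for a TOP start and 0.63 for 10021 genes with at least 1 FPKM in both means. These values describe genes, which are not independent replicates, and the tables differ in library protocol and alignment.

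The authors kept only reads of the stages that aligned to a single position, so that reads shared by near-identical copies were not counted. To give the extent of the copies, each transcript (GENCODE M21) was divided into 50-base windows, and a window was counted as single when no transcript of another gene, away from the same locus, held it on either strand. The share of single windows had a median of 49.3% over the 76 structural genes and was lowest for *Rps27*, at 1.35%. A median of 10 other genes, most of them annotated as pseudogenes, held at least 1 window of a member, and for *Rpl7a* there were 123. Across the structural genes, rho between the share of single windows and the level was 0.53 in the stages and -0.20 in the MEFs. Between the length of the transcript and the level, rho was 0.10 in the stages and -0.33 in the MEFs. The 19 genes with fewer than 25% single windows had a median of 5.24 FPKM in the stages and 820 FPKM in the MEFs. The 10 genes with at least 75% had 353 FPKM and 547 FPKM. The share did not order the genes fully, since *Rpl28* (65.5% single) was among the lowest in the stages and *Rplp1* (40.0%) and *Rps18* (13.3%) were at 729 and 112 FPKM. The part of the alignment filter in the levels was not tested.

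**Figure D1:**
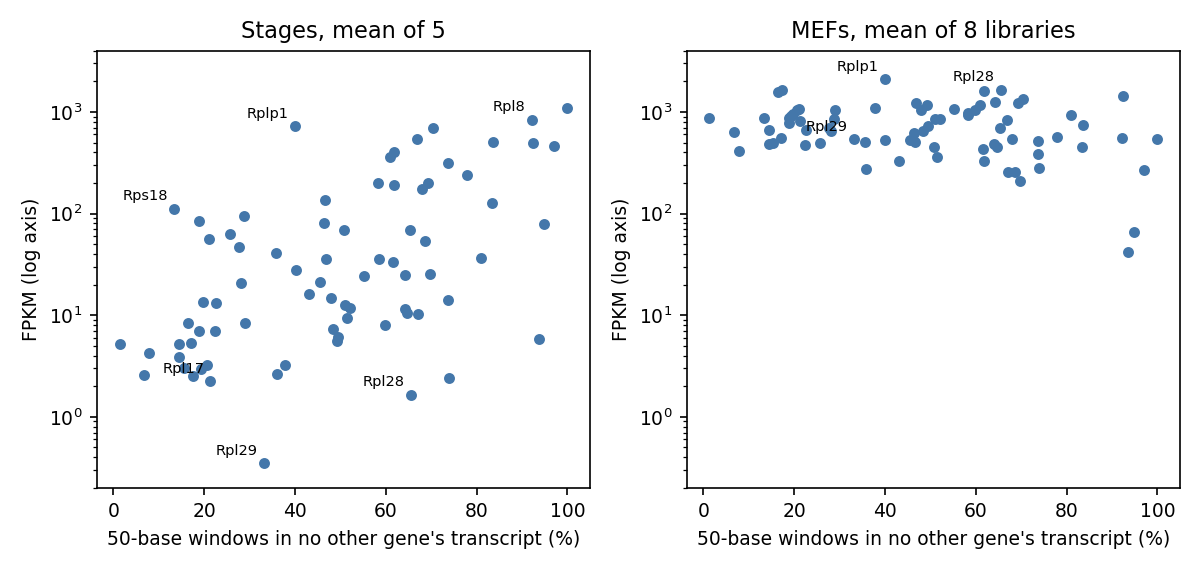
Mean FPKM (log axis) of each of the 76 structural ribosomal protein genes against the percent of its 50-base transcript windows held by no other gene's transcript, for the 5 stages (left) and the 8 MEF libraries (right); each point is 1 gene. In the stages the levels run upward from 0.351 FPKM (Rpl29) and are mostly low where few windows are single, while in the MEFs the genes lie between 42.2 and 2108 FPKM.

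From ESC to MES, more members were higher than lower, and the changes were uneven. Of 83 members with at least 1 FPKM in either stage, 13 were at least 2-fold higher in MES and 6 at least 2-fold lower on the log2(FPKM + 1) scale. Over all 10606 genes the shares were 6.94% higher and 7.3% lower. The median difference was 0.22 for the members and 0.00 for all genes. It was 0.49 for the 30 small subunit genes, of which 7 were at least 2-fold higher and 3 lower, and 0.15 for the 45 large subunit genes counted, of which 4 were higher and 1 lower.

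*Rpl14*, of the large subunit (chr9:120571517-120574653), was at 13.5, 73.9, 91.3, 73.8 and 92.6 FPKM along the 5 stages. *Rps18*, of the small subunit (chr17:33951999-33955641), was at 31.8, 126, 133, 121 and 147 FPKM. *Rps21* was at 94.9, 312, 307, 362 and 486 FPKM. In each of the 3, ESC stood apart from the 4 later stages, and the differences from ESC to MES were 2.37, 1.96 and 1.71 on the log2 scale. Others at least 2-fold higher in MES were *Rps2* (18.4 to 58.0 FPKM), *Rpl7a* (42.6 to 91.1), *Rpl35a* (6.79 to 21.9), *Rps27a* (6.12 to 19.2), *Rps25* (6.10 to 15.5), *Rps23* (2.87 to 8.92), *Rpl36a* (1.94 to 6.89), *Rps27l* and *Rpl31-ps12*. Of the 13, 12 were still at least 2-fold above their ESC level in HP and 10 in MAC. These counts use the same ESC values by which the 13 were chosen, so they are no separate evidence of a change. The same holds for the place of ESC in the 3 genes above. Genes chosen in this way were not followed over all genes.

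The members that were lower in MES followed several courses. *Rps10*, a small subunit protein mutated in Diamond-Blackfan anaemia (chr17:27630429-27635242), was at 57.4, 15.5, 15.6, 11.2 and 22.5 FPKM along the stages. *Rps19*, the gene most often mutated in that anaemia, was at 134, 53.5, 57.8, 47.6 and 110 FPKM, and *Rps7* at 36.7, 17.7, 18.3, 28.3 and 39.6 FPKM. As deposited, *Rps7* in MAC was back at its ESC level and *Rps19* was higher in MAC than at the 3 stages before without reaching it, whereas *Rps10* was below its ESC level at every later stage. The place of MAC depends on the scaling, because its summed FPKM was 381686 beside 180554 in ESC. With the stages scaled to the same sum, the log2 difference of *Rps19* from HP to MAC was 0.17 in place of 1.19. The processing labels of the ESC samples name Bowtie and HOMER, and those of the other stages name Cufflinks. The part of that difference in the ESC values was not tested.

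From MES to HB the members differed little. None was at least 2-fold higher (2.53% of all genes) and 1, *Rpl10l*, was at least 2-fold lower (3.3% of all genes). The SD of the differences over the structural genes was 0.18, against 0.82 from ESC to MES. Over all genes it was 0.51, against 0.74. The median was 0.13 for the members and 0.13 for all genes. The largest differences among members with at least 10 FPKM in either stage were 0.58 for *Rpl38* (12.1 to 18.6 FPKM), 0.56 for *Rpl13* (14.03 to 21.1 FPKM) and 0.48 for *Rps3a1* (7.79 to 11.3 FPKM), and in the other direction they included -0.27 for *Rps16* and -0.11 for *Rps15*.

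From HB to HP no member was past 2-fold, where 8.86% of all genes were higher and 8.8% lower. The median was -0.20, with 65 of 81 members lower, beside -0.13 for all genes. *Rpl22l1*, the paralogue of *Rpl22*, was the member with the largest positive difference (36.6 to 57.3 FPKM), followed by *Rps7* (18.3 to 28.3 FPKM) and *Rps21* (307 to 362 FPKM). The largest negative differences were those of *Rpl7l1* (60.0 to 32.1 FPKM), *Rpl24* (10.4 to 5.55 FPKM) and *Rps19bp1* (31.0 to 18.6 FPKM).

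From HP to MAC, 6 of 81 members were at least 2-fold higher (33.4% of all genes) and 4 at least 2-fold lower (13.9% of all genes). The median difference was 0.22 for the members and 0.45 for all genes. These values depended on the scaling, because the summed FPKM was 185803 in HP and 381686 in MAC. With all stages scaled to the same upper quartile, no member was 2-fold higher and 15 were 2-fold lower, with a median of -0.41 beside -0.21 for all genes. With the same sum the counts were 0 and 24 and the medians -0.68 and -0.47. Changed genes were counted among the members only under these scalings, so the counts have no share of all genes beside them. The members' median was thus below that of all genes as deposited and under both scalings, but above it (0.21 and 0.05) when genes under 1 FPKM in both stages were counted too. *Rpl37a* (23.8 to 57.0 FPKM), *Rps19* (47.6 to 110 FPKM) and *Rpl41* (26.9 to 60.3 FPKM) had the largest positive differences. *Rpl13* (18.2 to 5.68 FPKM), *Rpl30* (14.5 to 5.33 FPKM) and *Rps27a* (23.8 to 9.73 FPKM) had the largest negative ones, and these 3 were lower under every scaling.

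**Figure D2:**
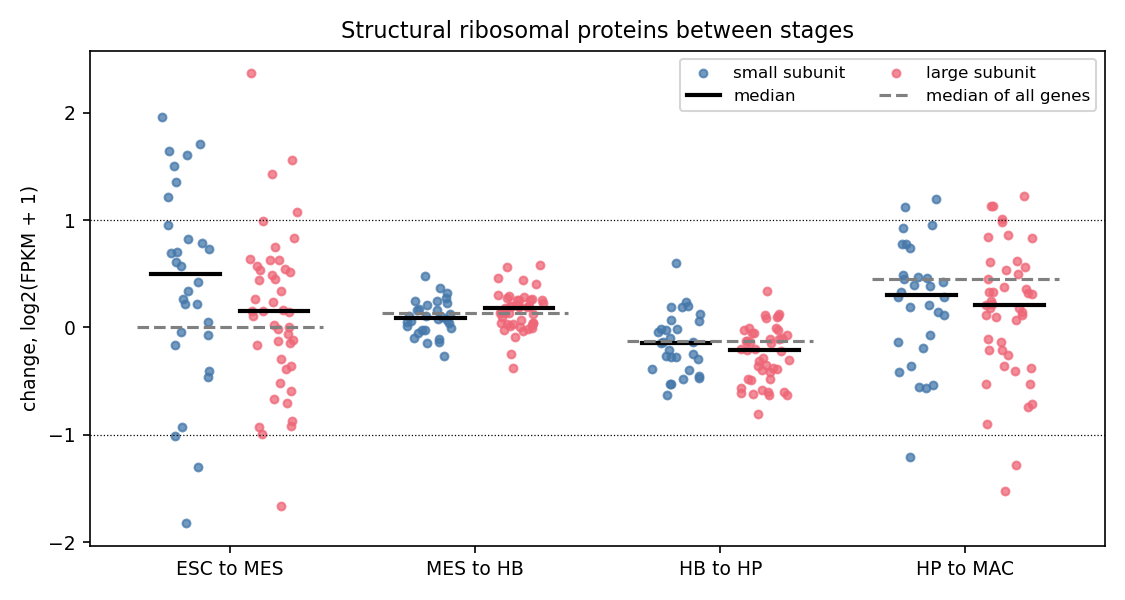
Change in log2(FPKM + 1) of each structural ribosomal protein gene at the 4 transitions, by subunit; points are genes with at least 1 FPKM in either stage, black bars are medians, dashed lines the median of all genes and dotted lines 2-fold changes. The points spread most from ESC to MES, where the small subunit median was 0.49 and the large subunit median 0.15, and lie within 2-fold from MES to HB and from HB to HP.

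Among the genes with fixed roles outside these rankings, *Rps6*, the small subunit protein phosphorylated by S6 kinase, was at 2.22 to 3.71 FPKM in the 5 stages. *Rpl5* and *Rpl11*, whose proteins bind MDM2 when ribosome assembly fails, were at 5.52 to 13.3 FPKM and at 2.45 to 4.55 FPKM. The stalk proteins recruit translation factors to the ribosome. As deposited, *Rplp0* was at 184 to 222 FPKM and *Rplp2* at 183 to 230 FPKM, with no stage apart from the rest. *Rplp1*, given above, was highest in MAC and lowest in ESC. The place of MAC in these courses depends on the scaling. The summed FPKM of all genes was 381686 in MAC and 180554 to 201844 at the other stages. The 17 genes mutated in Diamond-Blackfan anaemia had 1 member at least 2-fold higher and 3 lower from ESC to MES, where 6.94% and 7.3% of all genes were, and 1 higher and none lower from HP to MAC, where 33.4% and 13.9% of all genes were.

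Some paralogues had courses of their own. *Rpl10l*, the autosomal copy of X-linked *Rpl10* known from the testis, was at 20.6, 2.01, 0.493, 0.0375 and 0.0447 FPKM along the stages, and was listed at 0 in all 8 MEF libraries. *Rpl39l* was at 9.74, 0.982, 0.302, 0.211 and 0.145 FPKM. Both were thus highest in ESC, and both have few shared windows (92.4% of those of *Rpl10l* and all of those of *Rpl39l* were single). As deposited, their partners were lowest in ESC. *Rpl10*, with 7.87% single windows, was at 2.44 to 5.74 FPKM over the stages, and *Rpl39*, with 83.5%, was at 86.4 to 173 FPKM.

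*Rpl22l1* was at 41.6, 36.2, 36.6, 57.3 and 24.5 FPKM along the stages. Its partner *Rpl22* was at 131, 65.7, 74.9, 56.9 and 61.8 FPKM, so that the paralogue made up 50.2% of the pair in HP and 24.1% to 35.5% at the other 4 stages. *Rps27l* was at 94.9, 204, 234.8, 215 and 155 FPKM. It made up 96.5% to 97.5% of its pair with *Rps27* in the stages and 11.0% to 19.9% in the MEFs, where *Rps27* was at 541 FPKM or more, and the share of single windows was 1.35% for *Rps27* and 77.6% for *Rps27l*. The pair *Rpl36a* (14.5% single) and *Rpl36al* (53.5%) had a similar split, with *Rpl36al* at 79.8% to 94.3% of the pair in the stages and 22.2% to 29.6% in the MEFs. *Rpl7l1*, a paralogue that acts in assembly of the large subunit, was at 29.8 to 60.0 FPKM beside *Rpl7* at 105 to 188 FPKM. *Rpl3l*, known from muscle, was at 0.349 FPKM or less in every stage.

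**Figure D3:**
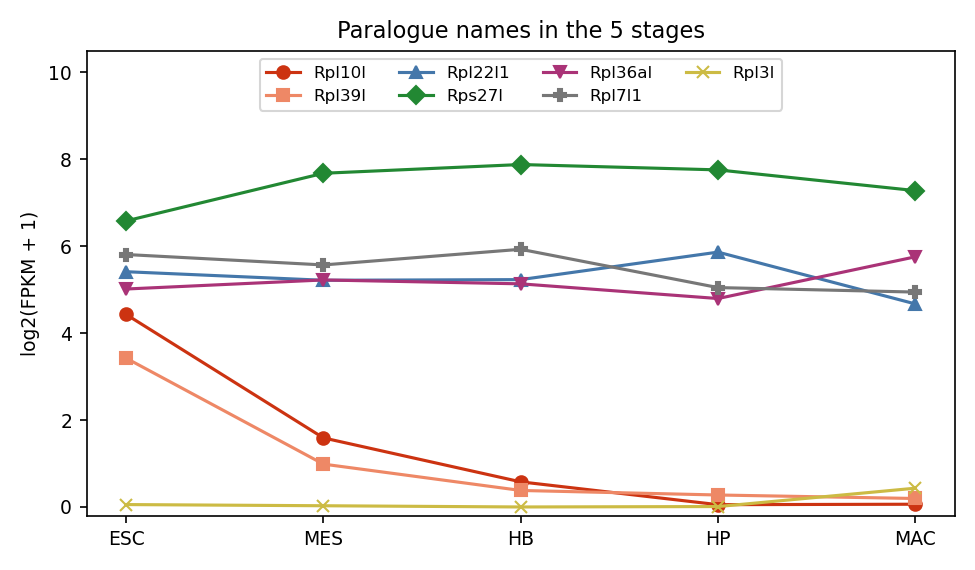
Level of the 7 paralogue names in the 5 stages, as log2(FPKM + 1); each point is the 1 combined value of a stage. Rpl10l and Rpl39l are highest in ESC, at 20.6 and 9.74 FPKM, and are below 1 FPKM from HB on, Rpl22l1 peaks in HP at 57.3 FPKM, and Rps27l is the highest throughout.

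The share of all FPKM that the 85 members held does not depend on the scaling of a column. It was 4.34%, 4.86%, 4.75%, 4.60% and 3.25% from ESC to MAC. For uFIB, SL, SFGL and FGL it was 12.5%, 14.2%, 19.9% and 11.4% at day 12, and 10.3%, 14.7%, 19.2% and 9.69% at day 21. At both days SFGL was the highest, SL the second and FGL the lowest. The share can also move when a few other genes take up much of a library, such as *S100a8* with 13249 FPKM in SL at day 12. Without the 20 highest other genes of each library the shares at day 12 were 13.7%, 16.7%, 22.9% and 12.6%.

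**Figure D4:**
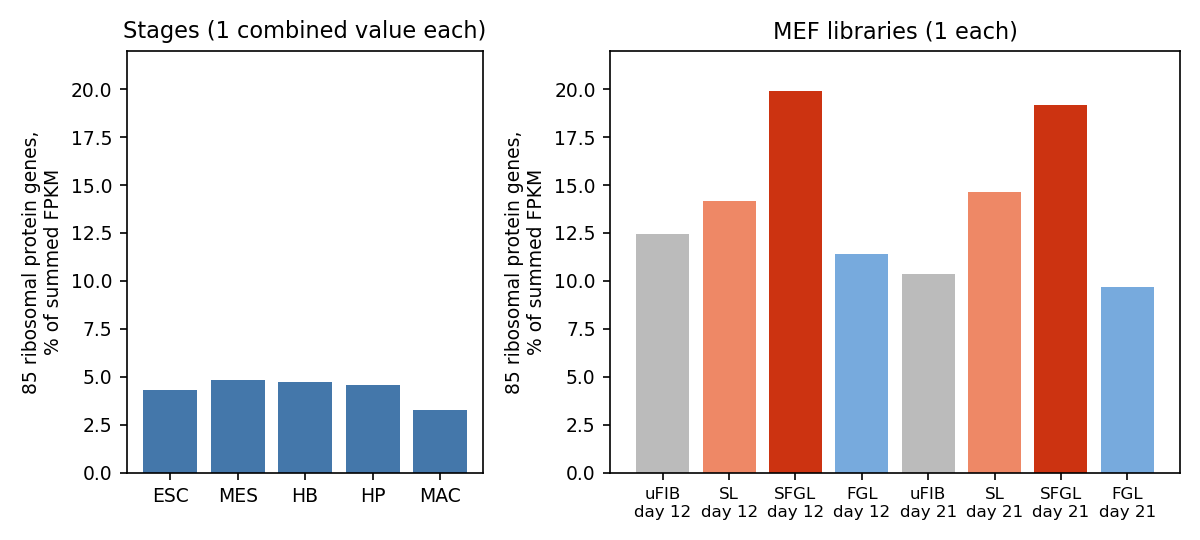
Summed FPKM of the 85 members as a percent of the summed FPKM of all genes, for the 5 stages (left, 1 combined value each) and the 8 MEF libraries (right, 1 library each). MAC is the lowest stage at 3.25%, and the SFGL libraries, at 19.9% and 19.2%, are the highest of the MEFs.

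In the MEFs the question was how the members differed between reprogrammed and untreated cells. The 8 libraries were fitted together with limma on log2(FPKM + 1), with treatment and day as terms, and p-values were adjusted over all 12517 genes by the Benjamini-Hochberg method. With 1 library per treatment and day, the spread is what these terms leave, and libraries of a treatment at both days may share a culture. The fit holds 83 members, since *Rpl10l* and *Rpl31-ps12* were too low.

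In SFGL every structural gene rose. Of the 83 members 77 rose and none fell, where 27.8% of all genes rose and 30.9% fell. The median difference from uFIB was 1.01 for the members and -0.04 for all genes, and within the days the members' medians were 0.97 and 1.08. All 76 structural genes were higher in both SFGL libraries than in the other 6, which held for 78 of the 83 members and for 9.2% of all genes. Higher than in uFIB at both days were 80 of 83 members and 41.5% of all genes. *Rps27a*, which encodes ubiquitin fused to a small subunit protein (chr11:29545842-29578352), was at 222 and 168 FPKM in uFIB (day 12 and day 21, the order used from here on), 384 and 365 FPKM in SL, 614 and 521 FPKM in SFGL and 202 and 141 FPKM in FGL. It had the largest difference, 1.54 (SE 0.13, limma adjusted p = 0.000737). *Rpl36a* (chrX:134585654-134588062) was at 472 and 350 FPKM in uFIB and 1253 and 993 FPKM in SFGL, a difference of 1.46 (SE 0.12). *Rpl5* was at 251 and 184 FPKM in uFIB and 620 and 561 FPKM in SFGL, a difference of 1.45 (SE 0.14). In all 3 the SFGL libraries lay above the rest at both days. *Rps6* was at 360 and 271 FPKM in uFIB and 893 and 748 FPKM in SFGL, and *Rpl11* at 850 and 692 FPKM and at 1588 and 1566 FPKM. Of the stalk proteins, *Rplp0* rose by 0.83, *Rplp2* by 1.01 and *Rplp1* by 0.61, the smallest difference among the large subunit genes.

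In SL, 58 of the 83 members rose and none fell, where 25.3% of all genes rose and 27% fell. The median difference was 0.52 for the members and -0.03 for all genes. Of the structural genes 57 of 76 passed the test, 23 of 30 in the small and 34 of 46 in the large subunit, and 75 of the 76 were higher than in uFIB at both days, the exception being *Rps21* (405 and 314 FPKM in uFIB, 394 and 364 FPKM in SL). Higher at both days were 78 of 83 members and 40.5% of all genes. All 4 SL and SFGL libraries were above the other 4 for 66 of 83 members and 29.2% of all genes. The largest differences were those of *Rps27a* (0.95, SE 0.13, limma adjusted p = 0.00356), *Rpl5* (0.92, SE 0.14; 402 and 411 FPKM in SL) and *Rpl28* (0.84, SE 0.11; 1107 and 939 FPKM in uFIB, 1990 and 1683 FPKM in SL). *Rplp1*, at 2078 and 1723 FPKM in uFIB and 2168 and 1852 FPKM in SL, did not pass the test (0.08, SE 0.12, limma adjusted p = 0.593). The count for SL depended on the settings. It was 28 with all libraries scaled to the same sum, where 2519 of 12552 genes rose. Without the day term it was 18, where 2504 of 12517 genes rose, so that the members were near the share of all genes. No member fell in either fit. With 1 library left in a group, the members' median was 0.49 without SL of day 21 and 0.54 without SL of day 12. It was 0.44 without uFIB of day 21 and 0.55 without uFIB of day 12. The medians of all genes in these fits were -0.05 to -0.02. Without the libraries labelled FGL 60 members rose in SL and 77 in SFGL, where 3101 and 3420 of 12357 genes rose.

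**Figure D5:**
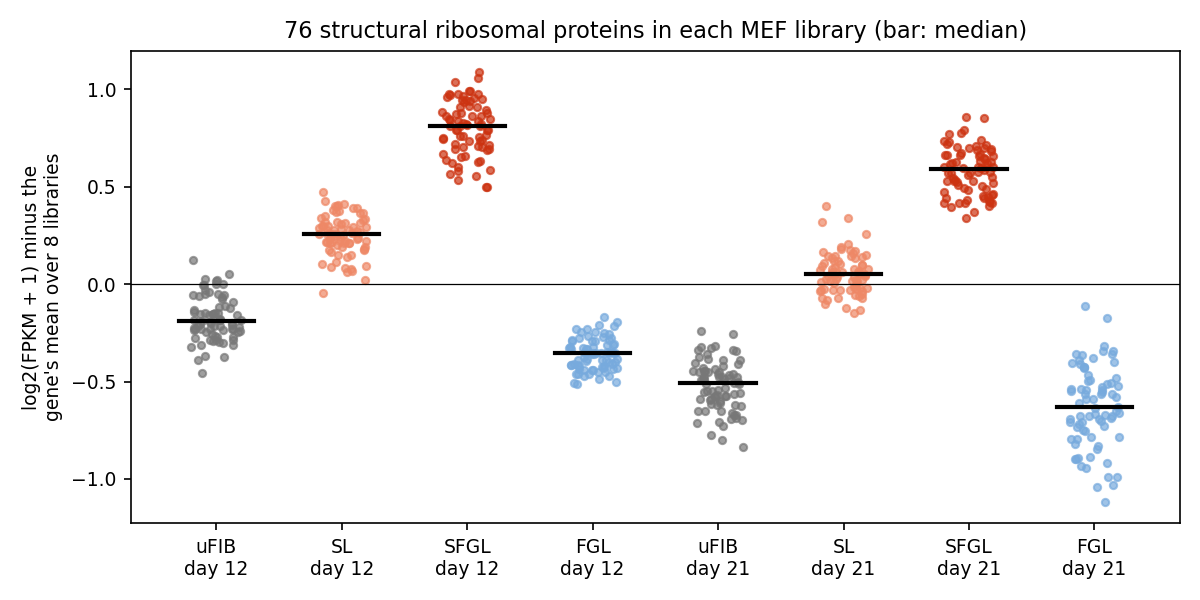
Level of the 76 structural genes in each of the 8 MEF libraries, as log2(FPKM + 1) minus the gene's own mean over the 8 libraries; each point is 1 gene and bars are medians. At each day SFGL lies highest and SL second, and FGL lies lowest; from uFIB to SFGL the fitted median of the 76 genes rose by 1.04.

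The members that did not pass the test in SFGL were *Rpl22l1*, *Rpl39l*, *Rpl3l*, *Rpl7l1*, *Rps27l* and *Rps19bp1*, 5 of the 7 paralogues and the RPS19-binding protein. *Rpl7l1* missed the threshold narrowly (0.33, SE 0.11, limma adjusted p = 0.0501). It, *Rpl3l* and *Rps27l* were higher in SFGL than in uFIB at both days. *Rpl22l1* was at 26.6 and 21.1 FPKM in uFIB, 15.7 and 23.1 FPKM in SL, 24.1 and 43.2 FPKM in SFGL and 16.2 and 9.67 FPKM in FGL, so that its libraries overlapped. *Rps27l* was at 152 and 134 FPKM in uFIB and 168 and 153 FPKM in SFGL (0.17, SE 0.12, limma adjusted p = 0.272). *Rps19bp1* lay between 12.1 and 16.7 FPKM in all 8 libraries. *Rpl36al* was the paralogue that rose, in both SL and SFGL.

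SFGL against SL, a comparison chosen after the data were seen, had no gene past the adjusted threshold (0% in either direction). An unadjusted limma p under 0.05 was found for 77 of the 83 members and for 1083 of all 12517 genes. The members' median difference was 0.53, beside -0.04 for all genes, and all 76 structural genes were higher in SFGL than in SL at both days (81 of 83 members; 26.1% of all genes).

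In FGL no member passed the test, where 0.016% of all genes rose and 0% fell. An unadjusted limma p under 0.05 was found for 8 of the 83 members and for 482 of all 12517 genes. The median was -0.16 for the members and -0.00 for all genes, and 55 of the 83 members were lower than in uFIB at both days (31.4% of all genes). *Rps21* was at 290 and 232 FPKM in FGL (-0.46, SE 0.12, limma adjusted p = 0.943) and *Rpl10* at 316 and 175 FPKM beside 386 and 278 FPKM in uFIB (-0.48, SE 0.18). *Rpl22l1* had the largest difference (-0.87, SE 0.38). In the positive direction the fitted differences of *Rpl39l* (0.26, SE 0.33), *Rps27* (0.16, SE 0.21) and *Rpl11* (0.12, SE 0.16) were within their errors.

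Between the days no member passed the test, where 1.13% of all genes were higher at day 21 and 1.33% lower. An unadjusted limma p under 0.05 was found for 60 of the 83 members and for 3172 of all 12517 genes. The median from day 12 to day 21 was -0.27 for the members and -0.06 for all genes, and 66 of the 83 members were lower at day 21 in all 4 treatments (23.2% of all genes). *Rpl3l* and *Rpl39l* had the largest negative differences (-0.61, SE 0.22, and -0.58, SE 0.24) at levels of 1.62 FPKM or less. *Rps27* (0.11, SE 0.15), *Rpl22l1* (0.08, SE 0.27) and *Rpl11* (0.01, SE 0.11) had the largest positive ones. With a filter of at least 10 FPKM in 2 libraries, 7 members fell, as did 2.32% of the 7536 genes then tested.

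Other genes of the cytosolic ribosome and of translation moved with the members to different degrees, while the mitochondrial ribosomal proteins as a list did not. Among all genes 27.8% rose and 30.9% fell in SFGL, and 25.3% rose and 27% fell in SL. All 4 ribosomal proteins of a list that the name rule leaves out rose in SL and in SFGL, among them *Rpsa*, *Fau* and *Gnb2l1* (the gene of RACK1), with differences of 1.28, 1.62 and 1.23 in SFGL. *Fau* was at 283 and 227 FPKM in uFIB, 570 and 463 in SL and 832 and 733 in SFGL. Of 17 translation factors and other genes known for a TOP start, 14 rose and 1 fell in SFGL and 7 rose and 1 fell in SL, the one that fell being *Vim*, the intermediate filament gene of fibroblasts (1194 and 1323 FPKM in uFIB, 414 and 308 FPKM in SFGL). *Pabpc1*, of the poly(A)-binding protein, rose by 1.64 and *Eef1b2*, an elongation factor, by 1.01. Of 40 genes of ribosome assembly, 25 rose and 2 fell in SFGL, and 16 rose and 1 fell in SL, among them *Ncl*, nucleolin, at 57.7 and 49.1 FPKM in uFIB and 100.2 and 86.7 FPKM in SFGL. Of 75 mitochondrial ribosomal proteins, which serve a separate ribosome, 10 rose and 2 fell in SFGL, and 6 rose and 9 fell in SL. These are lower shares than among all genes, and the medians of the list were 0.05 in SFGL and -0.08 in SL.

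Of 9 genes that signal to ribosome production, 4 rose and 2 fell in SFGL, where 27.8% of all genes rose and 30.9% fell. *Myc*, a transcription factor known to act on ribosomal genes, was at 23.8 and 18.6 FPKM in uFIB, 66.0 and 53.8 FPKM in SL, 93.0 and 75.2 FPKM in SFGL and 26.9 and 17.3 FPKM in FGL, and rose by 1.94 in SFGL (SE 0.11, limma adjusted p = 0.000508). *Rps6kb1*, the kinase of RPS6, fell by 0.74. Along the stages *Myc* was at 17.0, 6.77, 17.7, 16.0 and 7.67 FPKM and *Mycn* at 88.7, 25.2, 31.8, 17.95 and 0.198 FPKM. The 40 assembly genes had a median difference of -0.97 from HP to MAC, beside 0.22 for the members and 0.45 for all genes. Of the 40, 20 were at least 2-fold lower (13.9% of all genes) and none higher (33.4% of all genes).

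Markers of fibroblasts and of blood cells also differed between the MEF libraries, and only some of them followed the order of the members. The summed level of 8 fibroblast genes was 7380 and 5756 FPKM in uFIB, 6320 and 5835 FPKM in FGL, 2551 and 1610 FPKM in SL and 2080 and 1281 FPKM in SFGL. That of 5 blood progenitor genes was 21.1 and 25.8 FPKM in uFIB, 52.3 and 25.9 FPKM in FGL, 251 and 249 FPKM in SL and 347 and 399 FPKM in SFGL, so that SFGL was the highest, as for the members. The order of SL and SFGL was the other way for 4 hemangioblast genes, which include the delivered *Tal1* and *Lmo2* (119 and 498 FPKM in SL, 107 and 247 FPKM in SFGL). Red cell genes were at 0.194 and 0.383 FPKM in uFIB, 179 and 284 FPKM in SL, 85.1 and 281 FPKM in SFGL and 53.7 and 0.446 FPKM in FGL, so that they were above uFIB in FGL at day 12, where the share of the members was below that of uFIB. Macrophage genes were at 9.86 and 9.43 FPKM in uFIB, 103 and 44.8 FPKM in SL, 75.7 and 52.4 FPKM in SFGL and 17.96 and 8.42 FPKM in FGL. In bulk samples, more cells of a type and more RNA per cell cannot be told apart, and the part of the mix of cells in the levels of the members was not tested.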

How the data were processed

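FPKM values were used as deposited. Per the paper, the authors aligned 50-base reads of the stages to mm10 (GRCm38), kept unique alignments, removed duplicates and ran Cufflinks, and the deposited FPKM combine the replicates per TSS. The labels name TopHat and Cufflinks for the MEFs, with 1 FPKM per gene and library. TSS rows were summed per gene. In the stage table, 1 column of values (HE) belongs to no sample here and was not used. Members and gene lists were chosen with earlier results of these data known.

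Stages were described by counts of genes differing at least 2-fold after adding 1 FPKM and taking log2, over genes that reached 1 FPKM in either stage. MEFs were fitted with limma 3.58.1 in R 4.3.3 (eBayes with trend, 3 residual degrees of freedom) over genes with at least 1 FPKM in 2 libraries, calling adjusted p up to 0.05. The steps were tested on simulated data. Windows were planned against the genome, and matched to GENCODE M21 transcripts instead. Named genes were the 3 highest and 3 lowest by level or by change in each comparison, paralogue pairs, stalk proteins and *Rps6*, *Rpl5*, *Rpl11* and *Rps19*, and others named were chosen after their values were seen. Some genes that this rule selects are not reported here. Alternatives were pseudocounts, filters, scalings, models, a fold of 1.5, structural genes only, the highest TSS row and left-out libraries. Python 3.11.15, NumPy 2.4.6, pandas 2.3.3 and matplotlib 3.10.9 were used.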

Additional observations from a re-analysis of the deposited data

Results flagged for a closer look

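*Rpl39l* differed from uFIB in opposite directions at the 2 days in SL, by -0.34 at day 12 (1.37 to 0.876 FPKM) and by 1.05 at day 21 (0.0639 to 1.20 FPKM) on the log2(FPKM + 1) scale. Each value rests on 1 library per group, and the difference between the days was not tested.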

How the results depend on the processing

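Of 269 values recomputed for 35 results, 228 stayed on the same side and near the reported value. Near meant within 1.5-fold for counts, within 0.1 for medians and within a ratio of 1.1 for shares. The sign was reversed in 4, the medians from MES to HB and from HP to MAC under both scalings of the stages. With no filter on low values 43 of 84 members rose in SL, where 3196 of 16865 genes rose, which counted as near. No paired analysis was possible because replicate numbers mark no separate values: those of the stages are combined and the MEF libraries carry none. The MEF libraries are matched by day, which is a term of the fit. Between stages, scaling to the same upper quartile gave medians of -0.031 from MES to HB and -0.41 from HP to MAC, with 0 members higher and 15 lower in the latter, and scaling to the same sum gave -0.018 and -0.68, with 0 higher and 24 lower, and -0.091 from HB to HP. From HP to MAC, 7 members were lower with a pseudocount of 0.001 or 0.1, and the median was 0.41 with at least 10 FPKM in 1 of the 2 stages. With no filter there, the members' median of 0.21 lay above that of all genes, 0.051. The filter of 10 FPKM and the structural genes alone left 0 members lower from MES to HB. At a fold change of 1.5, 26 members were higher and 14 lower from ESC to MES, 2 and 10 from HB to HP and 19 and 7 from HP to MAC, as a lower limit admits more genes. At this limit, and under the scalings, pseudocounts and filters of the stages, changed genes were counted among the members only. These counts have no share of all genes beside them. Without the 20 highest other genes, the members' share was 5.48% in MES, 5.32% in HB, 5.41% in HP, 3.96% in MAC, 13.7%, 16.7% and 22.9% in uFIB, SL and SFGL at day 12 and 11.6%, 16.6%, 21.8% and 10.8% in uFIB, SL, SFGL and FGL at day 21, since the total is smaller. In the MEFs, scaling to the same sum gave 28 members in SL and medians of 0.37 in SL, 0.77 in SFGL and -0.15 between the days, and it moved the median of all genes to -0.17 in SL and -0.25 in SFGL, with 2519 genes that rose and 4149 that fell in SL in place of 3172 and 3380 and 2511 and 4985 in SFGL in place of 3480 and 3872. The fit without the day term gave 18 members in SL, and a filter of at least 10 FPKM in at least 2 libraries gave 7 between the days. Leaving out 1 library at a time gave 15 to 60 members in SL and 71 to 77 in SFGL, with 2 residual degrees of freedom. The lowest SL count came from the fit without SL of day 21, which leaves 1 SL library. There the share of members that rose was near that of all genes, and the medians were 0.49 for the members and -0.02 for all genes. In the other fits for SL, and in every fit for SFGL, the share of members that rose was above that of all genes. FGL cannot be compared with uFIB without its libraries. The causes of these shifts were not tested where the setting itself does not give them. The stage values have no replicate error and the depth is unknown in both tables, so that members listed at a few FPKM in the stages are the least certain.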
